A study of Mus musculus with 6 samples.

Results

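Macrophages are the most numerous immune cells of the mouse heart, and 33 genes that mark them or serve their functions were followed here in RNA of heart tissue. They were taken by symbol from the deposited count table, which lists 56748 genes, and all 33 were found in it. The mice were males on a C57Bl/6 background, 10 weeks old when the infusion began: 3 Pontin cTG mice, in which the α-MHC promoter drives human Pontin with a flag tag in cardiomyocytes, and 3 WT littermates without the transgene. Mini-osmotic pumps had delivered angiotensin II (Ang-II) to both groups over 14 days, at 1.5 mg per kg of body weight and day, so every comparison below is between genotypes under Ang-II, with no untreated hearts. Every heart gave a separate library, and total counts ran from 12436822 to 13194038 in WT and from 14584102 to 16888124 in the transgenic hearts.

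The heart holds macrophages of different origin. Resident macrophages, seeded largely before birth and maintained by local division, carry scavenger and endocytic receptors such as LYVE1, FOLR2, TIMD4 and CD163, and clear debris of cardiomyocytes. Macrophages that derive from circulating monocytes enter after injury or pressure overload and express genes such as *Plac8*, *Trem2*, *Gpnmb* and *Lgals3*. Both kinds depend on signalling from the growth factor CSF1 through its receptor CSF1R, and on transcription factors of which PU.1, which binds a purine-rich site containing GAGGAA, is the best known.

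The 33 genes were set out by role: the CSF1 axis (2 genes), resident macrophage genes (7), the subunits of complement C1q (3), pan-macrophage genes (6), recruited and lipid-associated genes (7) and genes shared by macrophages with other leukocytes (8). The promoters shown first are those of some members described below. *Csf1* and *Cybb* are among the members whose groups did not overlap. Such members were 3.12% (higher in Pontin cTG) and 6.25% (lower) of those tested, against 4.70% and 3.63% of all genes tested. *Mrc1* is among the resident genes at an unadjusted p under 0.05 in edgeR. *C1qb* and *C1qc* moved in step with each other across hearts. Each promoter runs 5′ to 3′ along the gene's own strand and covers the 250 bases before the transcription start in RefSeq on GRCm38.p6. Capitals mark the core of the PU.1 site, GAGGAA, or its reverse complement TTCCTC.
Csf1 (chr3:107760470-107760719, minus strand): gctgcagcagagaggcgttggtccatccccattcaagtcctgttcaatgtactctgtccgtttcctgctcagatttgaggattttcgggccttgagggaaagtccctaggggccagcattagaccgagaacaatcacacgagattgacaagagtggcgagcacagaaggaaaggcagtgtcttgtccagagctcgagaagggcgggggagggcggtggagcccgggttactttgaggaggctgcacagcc
Mrc1 (chr2:14229164-14229413, plus strand): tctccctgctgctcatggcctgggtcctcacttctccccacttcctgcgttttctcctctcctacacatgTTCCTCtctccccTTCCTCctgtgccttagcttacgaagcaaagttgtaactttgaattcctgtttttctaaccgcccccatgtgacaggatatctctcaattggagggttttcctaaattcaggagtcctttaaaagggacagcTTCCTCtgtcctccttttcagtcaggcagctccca
C1qb (chr4:136886201-136886450, minus strand): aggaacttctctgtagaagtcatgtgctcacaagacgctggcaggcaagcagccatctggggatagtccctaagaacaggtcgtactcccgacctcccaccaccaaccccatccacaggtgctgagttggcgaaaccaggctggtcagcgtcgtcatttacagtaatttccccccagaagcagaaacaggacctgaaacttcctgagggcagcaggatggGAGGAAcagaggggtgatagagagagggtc
C1qc (chr4:136892915-136893164, minus strand): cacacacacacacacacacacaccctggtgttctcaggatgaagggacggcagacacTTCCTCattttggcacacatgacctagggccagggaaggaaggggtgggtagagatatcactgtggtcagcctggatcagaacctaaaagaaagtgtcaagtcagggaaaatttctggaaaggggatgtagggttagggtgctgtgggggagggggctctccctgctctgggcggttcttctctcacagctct
Cybb (chrX:9469325-9469574, minus strand): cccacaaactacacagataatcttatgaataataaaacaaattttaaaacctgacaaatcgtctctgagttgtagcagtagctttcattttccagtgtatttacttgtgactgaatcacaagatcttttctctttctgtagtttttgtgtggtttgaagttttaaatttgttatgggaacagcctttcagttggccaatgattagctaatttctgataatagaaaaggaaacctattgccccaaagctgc
The window held 3 matches in *Mrc1*, 1 each in *C1qb* and *C1qc*, and none in *Csf1* or *Cybb*. The RefSeq table held a promoter for 25 of the 33 genes and none for *Csf1r*, *Itgb2*, *Cd14*, *C1qa*, *Adgre1*, *Lyve1*, *Tyrobp* and *Cd52*. Those 25 genes had 30 promoters. For 18 of the 30, the bases after the start were found in a GENCODE M21 transcript of the gene, and the other starts were not matched. GAGGAA on either strand was present in 14 of the 25 (56%), against 6986 of 27025 genes with a promoter in the table (25.9%). The longer form GAGGAAGT, which contains the first motif, was present in 1 of 25 (4%) against 2.79% of all genes. The AP-1 motif TGANTCA was present in 5 of 25 (*Folr2*, *Cd68*, *Ms4a7*, *Trem2* and *Cybb*, 20%) against 7.82% of all genes. These matches describe letters in a window and not binding.

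Some facts of the libraries touch everything that follows. *Ruvbl1*, the mouse gene of Pontin, had 216, 221 and 217 normalised counts in WT and 249.9, 250.02 and 239.95 in Pontin cTG hearts, a log2 fold change of 0.18 (SE 0.12). Reads from the human transgene may not map there, so its level cannot be read from these values. On the first principal component, which held 48.6% of the variance, Pontin cTG replicate 2 scored 50.9 and the other 5 libraries between −23.1 and 16.2. The methods of the study mention that 1 principal component outlier was left out, with no word on which experiment it belonged to, while its reporting summary lists no exclusions. Whether that was 1 of these 6 libraries cannot be told, and all 6 were used. WT replicate 2 stood apart in the macrophage genes themselves, as described below. With 3 mice against 3, exact permutation of the labels for 1 value cannot go below p = 0.1. Neither the labels nor the methods say which parts of the heart the tissue held. In RNA of bulk tissue, fewer macrophages and less RNA per macrophage cannot be told apart.

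Macrophage genes were measured at very different levels. Per kilobase of exon, the mean over the 6 hearts was 1913 normalised counts for *Lyz2* (lysozyme), 644 for *C1qa*, 633 for *C1qb* and 291 for *C1qc*, while it was 12.5 for *Timd4*, 9.06 for *Trem2*, 7.80 for *Itgam*, 5.88 for *Plac8* and 3.34 for *Gpnmb*. Together the 33 genes took 0.0657%, 0.112% and 0.0713% of all counts in the 3 WT hearts, by replicate, and 0.0773%, 0.0850% and 0.0565% in those of Pontin cTG. The highest share was in WT replicate 2 and the lowest in Pontin cTG replicate 3, and the other 4 hearts of both groups lay between them. The summed normalised counts were 11801 ± 3371 (SD, n = 3) in WT and 10132 ± 1615 in Pontin cTG (SD, n = 3), and the groups overlapped.

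Of the 33 genes, 32 passed the filter on low counts, and *Plac8* did not. None of the 32 passed an adjusted p of 0.05 between genotypes by edgeR (quasi-likelihood, p-values adjusted after Benjamini-Hochberg over 13888 genes; adjusted p = 0.999 for each), nor did any member in DESeq2 or limma-voom. Over all genes tested, edgeR placed 0 past this threshold (0%), DESeq2 1 and limma-voom 3. At an unadjusted p under 0.05 in edgeR, 3 of 32 members were lower in Pontin cTG hearts (9.38%, against 1.03% of all genes tested) and 0 were higher (against 1.02%). The 3 were *Mrc1*, *F13a1* and *Cybb*, and DESeq2 placed *Csf1r* and *Cd68* below this threshold too, 5 in all, each lower in Pontin cTG (against 0.414% of the genes DESeq2 tested). DESeq2 was run without the filter on low counts, over 25633 genes, so its share rests on a wider base than that of edgeR. Of the 32, 7 had a log2 fold change above 0 (21.9%, against 50.2% of all genes) and 25 below it. The median was −0.31 against 0.0013 over all genes tested.

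The balance of signs turned when a single WT heart was left out. Without WT replicate 2, 20 of the 32 genes had a log2 fold change above 0 and 12 below, the median was 0.091, and none had an unadjusted p under 0.05 in edgeR. Without Pontin cTG replicate 2, only 2 of 33 were above 0. WT replicate 2 had the highest count of all 6 hearts for 23 of the 32 genes (71.9%), against 16.8% of all genes tested, and lay above the gene's own mean for 31 of 32, *Csf1* being the exception. Pontin cTG replicate 3 had the lowest count for 22 of 32 (68.8%, against 17.7% of all genes) and lay above the gene's mean for 1. Pontin cTG replicate 2, the heart that stood apart over the whole transcriptome, was the highest for 5 of 32 (15.6%, against 30.2%). The groups did not overlap for 3 members: 1 was higher in Pontin cTG (*Csf1*, 3.12% against 4.70% of all genes) and 2 were lower (*Csf1r* and *Cybb*, 6.25% against 3.63%).

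**Figure D1:**
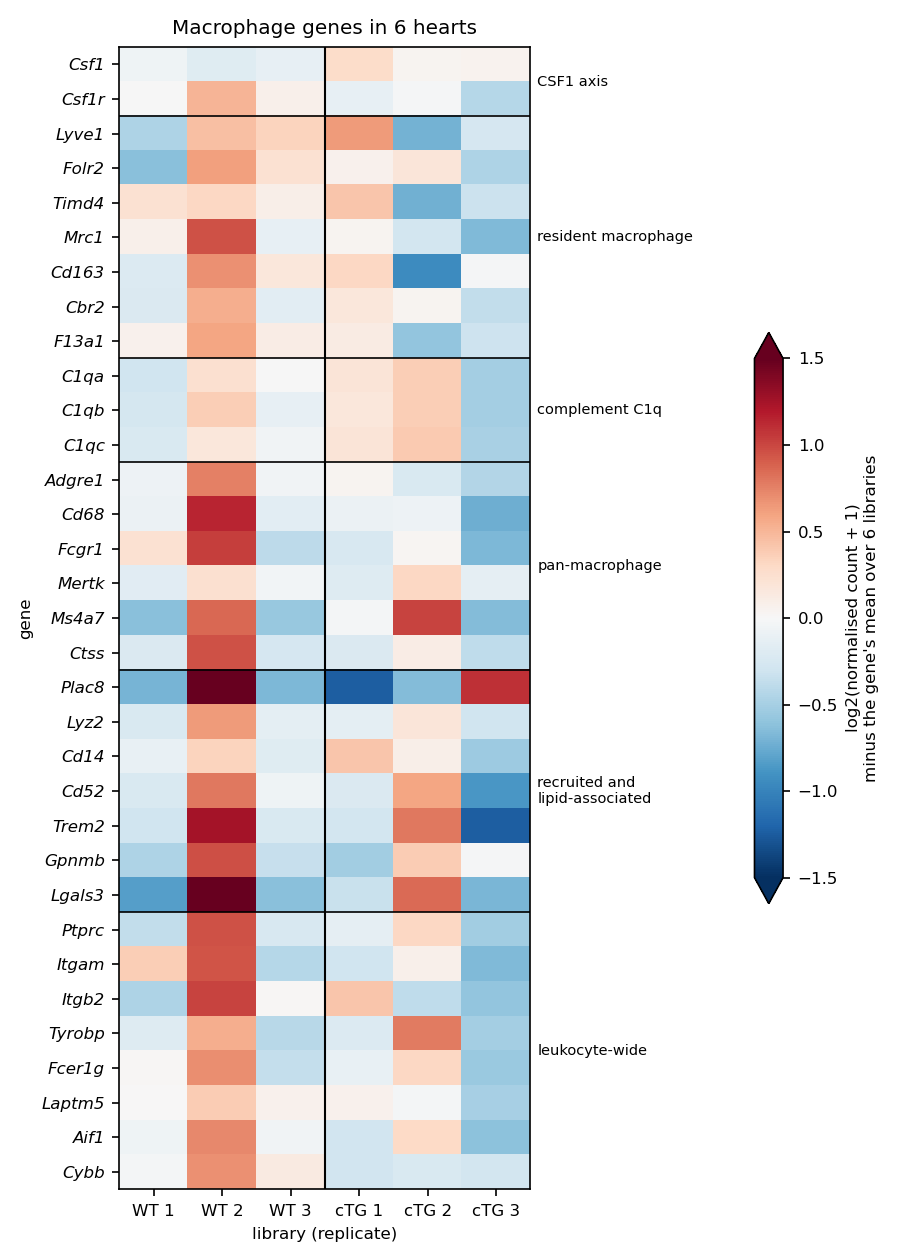
Heat map of the 33 macrophage genes (rows, by role) in the 6 hearts (columns). Colour gives log2(normalised count + 1) minus the gene's mean over the 6 libraries, red above and blue below. The column of WT replicate 2 is red in nearly every row, and that of Pontin cTG replicate 3 is mostly blue. Pontin cTG replicate 2 is blue for *Lyve1*, *Timd4*, *Cd163* and *F13a1* and red for the C1q genes, *Ms4a7*, *Trem2* and *Lgals3*.

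*Csf1* (ENSMUSG00000014599, chromosome 3 from 107648364 to 107667785 in the coordinates of the table) encodes the growth factor on which macrophages depend for survival and division, and it is made by fibroblasts, endothelium and other stromal cells. Its normalised counts were 789.6, 727 and 757 in WT and 1004, 851 and 860.2 in Pontin cTG hearts. All 3 Pontin cTG hearts lay above all 3 WT hearts. The log2 fold change was 0.26 (SE 0.13, 95% interval −0.029 to 0.54, unadjusted p = 0.072 and adjusted p = 0.999 in edgeR). It was the member with the largest positive log2 fold change, and it stayed between 0.18 and 0.30 when any single heart was left out. WT replicate 2, the highest heart for most macrophage genes, was the lowest for *Csf1*.

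*Csf1r* (ENSMUSG00000024621, chromosome 18 from 61233670 to 61265221) encodes the receptor, which in the heart is a gene of macrophages and monocytes. Its counts were 753, 1076 and 797 in WT and 693, 747 and 564 in Pontin cTG hearts. The groups did not overlap, but the highest Pontin cTG heart and the lowest WT heart were only just apart. The log2 fold change was −0.39 (SE 0.18, 95% interval −0.79 to 0.0071, unadjusted p = 0.053 in edgeR and 0.046 in DESeq2). Without WT replicate 2 it was −0.22. *Csf1r* overlaps *Hmgxb3* on the opposite strand over 873 bases, and *Hmgxb3* held 1599 counts in all against 4590 for *Csf1r*, and the TruSeq v2 kit named in the methods does not mark strand, so reads from the shared bases cannot be told apart.

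The ratio of *Csf1* to *Csf1r* does not depend on how libraries are scaled, and it was examined after the values of both genes had been seen. It was 1.05, 0.676 and 0.950 in WT and 1.45, 1.14 and 1.53 in Pontin cTG hearts, with means of 0.891 ± 0.193 and 1.37 ± 0.205 (SD, n = 3 each). The groups did not overlap, which follows from the values of the 2 genes themselves, so the ratio adds no test.

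Of the 20 growth factors and transcription factors of macrophages listed beside the members, 16 were tested, 9 with a log2 fold change above 0 and 7 below, and none reached an unadjusted p under 0.05 in edgeR. The smallest p belonged to *Nr1h3*, which encodes the oxysterol receptor LXRα, with 171, 187 and 146 normalised counts in WT and 182, 221 and 217 in Pontin cTG hearts (log2 fold change 0.30, SE 0.16, unadjusted p = 0.091 in edgeR). The next were *Mitf*, a factor of macrophages and other cells (log2 fold change −0.20), and *Cebpa*, a factor of myeloid differentiation (0.19). *Csf2*, the growth factor GM-CSF, had no count in any heart, which allows up to 3 counts per library by counting error alone.

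All 7 resident macrophage genes had a log2 fold change below 0, with a median of −0.36, and the groups overlapped for every one of them. In limma-voom with sample quality weights, which lets the libraries count unequally, the signs of *Lyve1*, *Folr2*, *Cd163* and *Cbr2* turned and the median was 0.090. *Mrc1* (ENSMUSG00000026712, chromosome 2 from 14234203 to 14336868), the mannose receptor CD206, had 611, 1131 and 534 normalised counts in WT and 597, 479 and 367 in Pontin cTG hearts. WT replicate 2 stood well above the other 5, at 1.97 times the mean of the other WT hearts. The log2 fold change was −0.66 (SE 0.29, unadjusted p = 0.048 in edgeR and 0.022 in DESeq2), and −0.25 without WT replicate 2.

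*F13a1* (ENSMUSG00000039109, chromosome 13 from 37051152 to 37234220), the A subunit of the transglutaminase factor XIII, had 817, 1171 and 844 normalised counts in WT and 848, 516 and 629.8 in Pontin cTG hearts. Pontin cTG replicate 1 was level with the WT hearts, and the other 2 Pontin cTG hearts were below all of WT. The log2 fold change was −0.51 (SE 0.21, unadjusted p = 0.041 in edgeR and 0.029 in DESeq2), and −0.32 without WT replicate 2. *Mrc1* and *F13a1* kept the negative sign in all 15 alternative analyses, but an unadjusted p under 0.05 in only 7 and 9 of them. Neither had it in limma-voom, without WT replicate 2, Pontin cTG replicate 2 or Pontin cTG replicate 3, or without replicate 2 of both groups. *F13a1* also did not have it without WT replicate 3, and *Mrc1* also not with library size alone or with either other filter on low counts.

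The scavenger receptor gene *Cd163*, whose protein takes up haemoglobin bound to haptoglobin, had 266, 496 and 348 normalised counts in WT and 383, 160.1 and 303 in Pontin cTG hearts. *Lyve1*, encoding a hyaluronan receptor, had 229, 432 and 396 in WT and 492, 192 and 264 in Pontin cTG hearts. *Timd4*, the phosphatidylserine receptor TIM-4, had 30.8, 32.5 and 27.9 in WT and 35.1, 15.4 and 20.8 in Pontin cTG hearts. In these 3 genes Pontin cTG replicate 2 was the lowest of all 6 hearts, and in *Lyve1* and *Timd4* Pontin cTG replicate 1 was the highest. Their log2 fold changes were −0.39 (SE 0.32), −0.16 (SE 0.35) and −0.36 (SE 0.36), and none of the 3 had an unadjusted p under 0.05. With single hearts left out, *Cd163* ran from −0.67 (Pontin cTG replicate 1) to −0.11 (Pontin cTG replicate 2) and *Timd4* from −0.74 to −0.13, without the same hearts.

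The folate receptor gene *Folr2* had 23.1 to 56.1 normalised counts in WT and 26.0 to 41.1 in Pontin cTG hearts (log2 fold change −0.21, SE 0.37), and the carbonyl reductase gene *Cbr2* had 218 to 371 and 196 to 285 (−0.14, SE 0.23). *Folr2* shares its locus with *Gm10602* on the opposite strand, which held 144 counts in all against 226 for *Folr2*. LYVE1 is also made by lymphatic endothelium. The 6 lymphatic endothelial markers (*Prox1*, *Pdpn*, *Flt4*, *Ccl21a*, *Mmrn1* and *Reln*, with *Mmrn1* at 0) summed to between 1735 and 1922 normalised counts in WT hearts and between 1297 and 1769 in those of Pontin cTG. This sum too was lowest in Pontin cTG replicate 2, though 1 of the markers was highest there. The part of these markers in the *Lyve1* values was not tested.

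A further 19 genes were listed for resident macrophages, though RNA of bulk tissue does not tell which cells held it. Of these genes, 17 were tested, 7 with a log2 fold change above 0 and 10 below. Only *Hmox1*, haem oxygenase 1, reached an unadjusted p under 0.05 among them (1 of 17 lower in edgeR, against 1.03% of all genes tested). It had 129, 813 and 133 normalised counts in WT and 125, 139.6 and 89.2 in Pontin cTG hearts, so that WT replicate 2 was at 6.21 times the mean of the other WT hearts, and those lay within the range of Pontin cTG. Its log2 fold change was −1.60 (SE 0.68, unadjusted p = 0.047 and adjusted p = 0.999 in edgeR).

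**Figure D2:**
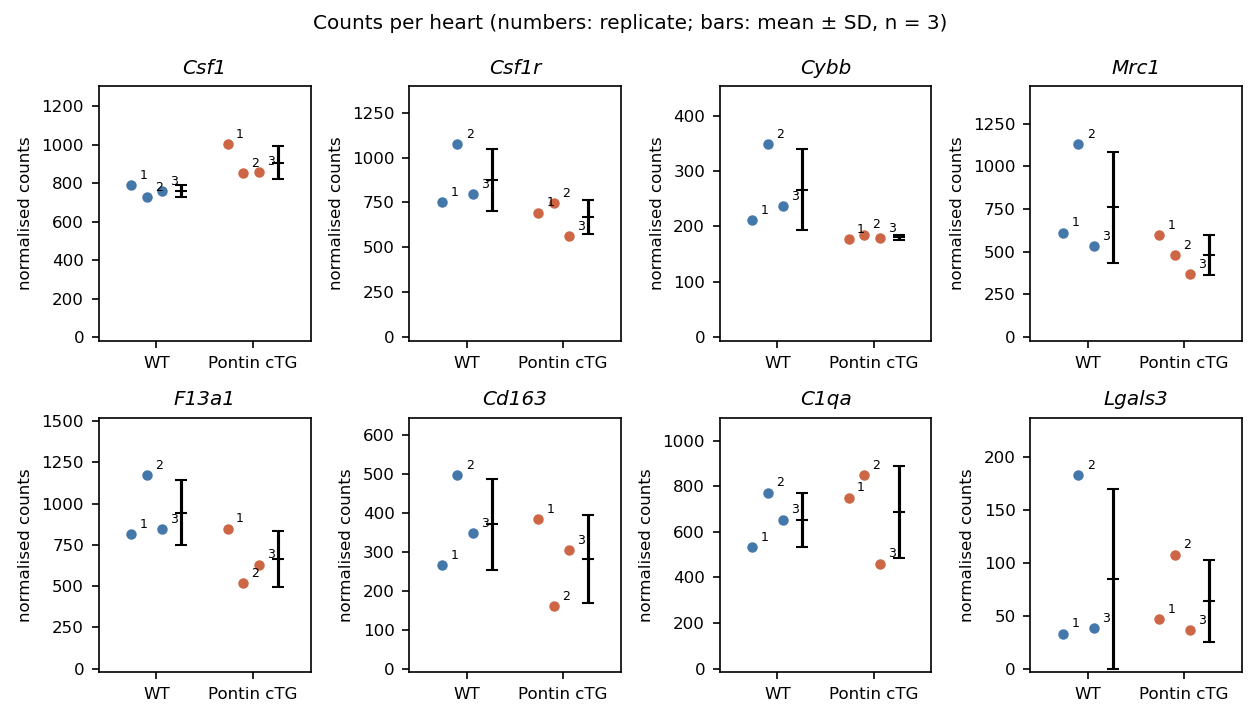
Normalised counts (vertical axes) of 8 macrophage genes in WT (blue) and Pontin cTG (orange) hearts. Points are hearts, labelled with their replicate number, and bars give the mean ± SD (n = 3). *Csf1*, *Csf1r* and *Cybb* separate the groups, while in *Mrc1*, *F13a1*, *Cd163*, *C1qa* and *Lgals3* the hearts of the groups overlap.

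The 3 genes of complement C1q, the recognition unit of the classical pathway and a product of tissue macrophages, lie side by side on chromosome 4 between 136607440 and 136626114. *C1qa* had 533, 772 and 654 normalised counts in WT and 749.8, 848 and 461 in Pontin cTG hearts. *C1qb* had 559, 866 and 615 in WT and 756, 865 and 473 in Pontin cTG hearts. *C1qc* had 468, 619 and 532 in WT and 629.7, 724 and 393 in Pontin cTG hearts. The 3 genes took the same order among the Pontin cTG hearts, highest in replicate 2 and lowest in replicate 3, and the same order among the WT hearts.

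Their log2 fold changes were 0.071 (SE 0.23), 0.037 (SE 0.24) and 0.11 (SE 0.22), and the interval for *C1qa* ran from −0.45 to 0.59, so a change within these bounds was not detectable with these hearts. Without Pontin cTG replicate 2 they were −0.11, −0.15 and −0.079. The ratio of *C1qa* to *C1qc* ran only from 1.14 to 1.246 over the 6 hearts, and that of *C1qb* to *C1qc* from 1.16 to 1.40, while *C1qa* itself spanned 1.84-fold. Against *Csf1r*, the C1q genes stood higher in Pontin cTG hearts by group means, though not they alone. The ratio of *C1qc* to *Csf1r* was 0.621, 0.576 and 0.668 in WT and 0.908, 0.968 and 0.697 in Pontin cTG hearts, without overlap, and that of *C1qb* to *Csf1r* was 0.773 ± 0.0312 and 1.03 ± 0.168 (SD, n = 3 each), also without overlap. The ratio of *C1qa* to *Csf1r* was 0.748 ± 0.0625 in WT and 1.01 ± 0.170 in Pontin cTG hearts, and its groups overlapped. Mean ratios to *Csf1r*, WT then Pontin cTG, were also higher for *Lyz2* (3.03, 3.49), *Lyve1* (0.401, 0.478), *Cd163* (0.417, 0.435) and *Ms4a7* (0.0623, 0.0963). That of *Mrc1* was lower (0.844, 0.717). The groups overlapped in each of these. These ratios, too, were formed after the values had been seen and are given with no test.

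Of the 6 pan-macrophage genes, 5 had a log2 fold change below 0. *Adgre1*, the gene of the F4/80 antigen, had 249, 443 and 253 normalised counts in WT and 270.4, 224 and 193 in Pontin cTG hearts (log2 fold change −0.46, SE 0.24, unadjusted p = 0.090 in edgeR). *Cd68*, a lysosomal glycoprotein, had 115, 271 and 109.6 in WT and 114, 116 and 72.8 in Pontin cTG hearts (−0.71, SE 0.36, unadjusted p = 0.081 in edgeR and 0.049 in DESeq2). *Fcgr1*, the high-affinity receptor for IgG, had 69.4, 122 and 44.7 in WT and 49.8, 59.9 and 36.4 in Pontin cTG hearts (−0.69, SE 0.37, unadjusted p = 0.097 in edgeR). All 3 were highest in WT replicate 2 and lowest in Pontin cTG replicate 3, and their other 4 hearts overlapped between the groups. Without WT replicate 2 their log2 fold changes were −0.13, −0.15 and −0.23.

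*Mertk*, a receptor for the engulfment of dying cells, was nearly the same in both groups, with 134 to 178 normalised counts in WT and 132 to 187 in Pontin cTG hearts (log2 fold change −0.011, 95% interval −0.45 to 0.43). *Ms4a7* had 35.2, 101 and 36.9 in WT and 53.7, 112 and 34.7 in Pontin cTG hearts, so that replicate 2 was at 2.80 times the mean of the other hearts in WT and 2.54 times in Pontin cTG. *Ctss*, the protease cathepsin S, had 253, 574 and 248 in WT and 254, 319 and 227 in Pontin cTG hearts (−0.43, SE 0.32), and the hearts other than WT replicate 2 lay between 227 and 319.

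Among the recruited and lipid-associated genes, 6 of 7 were highest in WT replicate 2. *Lgals3*, the lectin galectin-3, had 33.04, 183 and 38.0 normalised counts in WT and 46.9, 108 and 36.4 in Pontin cTG hearts. *Trem2*, a lipid-sensing receptor, had 30.8, 92.0 and 32.4 in WT and 31.2, 66.8 and 15.6 in Pontin cTG hearts. In both genes replicate 2 of each group stood above the remaining 4 hearts: WT replicate 2 was at 5.15 and 2.91 times the mean of the other WT hearts, and Pontin cTG replicate 2 at 2.59 and 2.85 times that of its group. The log2 fold changes were −0.40 (SE 0.67) and −0.44 (SE 0.58), and both turned positive without WT replicate 2, at 0.84 and 0.26.

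*Plac8*, a gene of Ly6C-high monocytes, had 3, 27, 3, 2, 4 and 16 raw counts in WT replicates 1 to 3 and Pontin cTG replicates 1 to 3, too few to pass the filter. WT replicate 2 and Pontin cTG replicate 3 held most of them. *Gpnmb*, a glycoprotein of lipid-laden macrophages, had 14.3 to 40.4 normalised counts in WT and 13.7 to 26.5 in Pontin cTG hearts (log2 fold change −0.22, SE 0.48). *Cd52* had 39.6 to 81.9 and 25.1 to 71.1 (−0.28, SE 0.42). *Cd14*, the co-receptor for lipopolysaccharide, was the one recruited gene with a value above 0, at 0.0070 (SE 0.27), and its highest heart was Pontin cTG replicate 1.

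*Lyz2*, the most abundant member by length, had 2087, 3811 and 2220.1 normalised counts in WT and 2223, 2773 and 1996 in Pontin cTG hearts (log2 fold change −0.22, SE 0.24). Its paralog *Lyz1* held 75 counts in all 6 libraries together, and how reads that match both genes were counted is not given in the sources used here. Over the tested genes of this group, 1 had a log2 fold change above 0 and 5 below, with a median of −0.25 against −0.36 in the resident genes. Without WT replicate 2 the medians were 0.22 and −0.13.

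**Figure D3:**
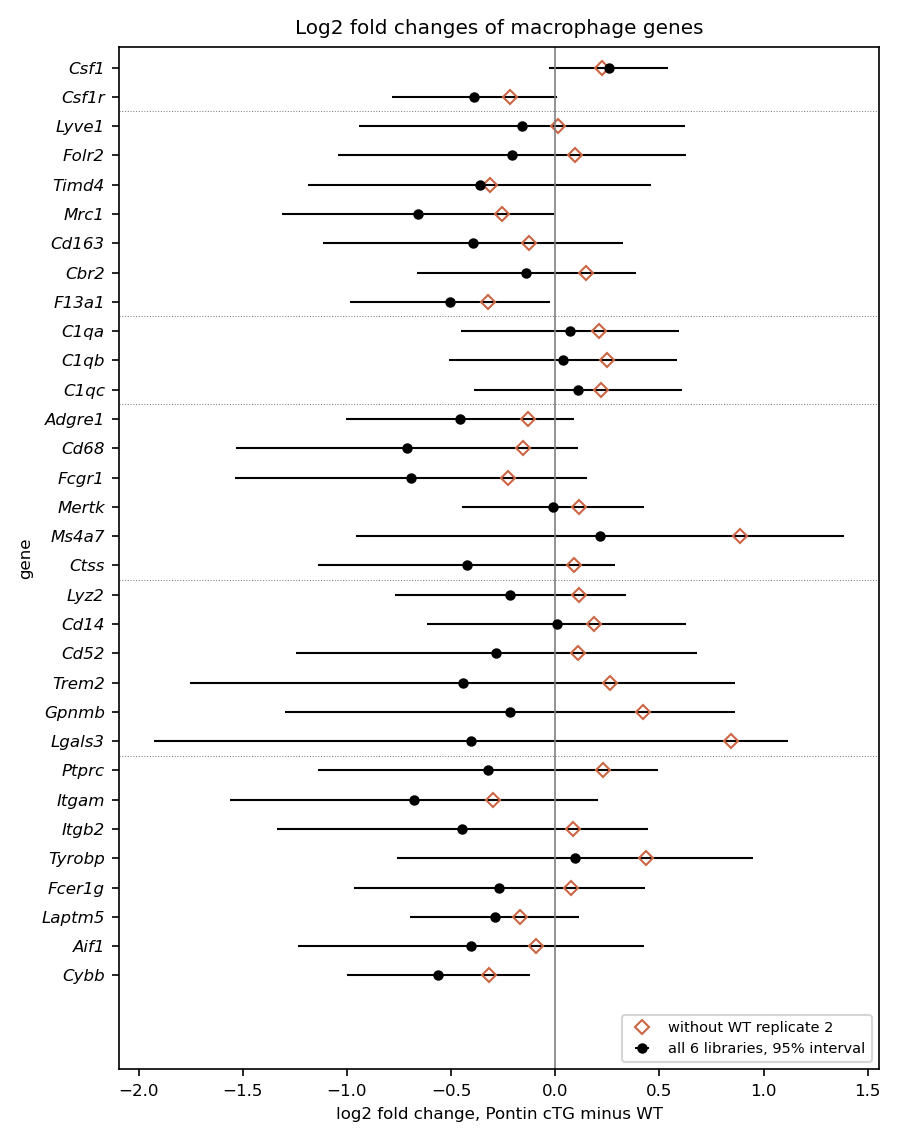
Log2 fold change (horizontal axis, Pontin cTG minus WT) of the 32 macrophage genes tested, by role from top to bottom. Black points are the values from all 6 libraries with 95% intervals, and open diamonds are the values without WT replicate 2. Only the intervals of *Mrc1*, *F13a1* and *Cybb* lie wholly below 0, and 20 of the 32 diamonds lie above 0.

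A further 20 genes were listed for recruited monocytes, though RNA of bulk tissue does not tell which cells held it. *Ctsd*, at a mean of 7548 normalised counts in WT hearts, and *Ly6c2*, at 6.32, were both among them. The signs of the list therefore need not be those of monocytes. Of the 20 genes, 13 were tested, 7 with a log2 fold change above 0 and 6 below, and none had an unadjusted p under 0.05 in edgeR. *Ccr2*, the chemokine receptor that draws monocytes out of the blood, had 85.9, 390.4 and 48.1 normalised counts in WT and 39.1, 113 and 66.7 in Pontin cTG hearts, with WT replicate 2 at 5.83 times the mean of the other WT hearts (log2 fold change −1.25, SE 0.73). *Il1b*, the cytokine interleukin-1β, was scarce, at 3.30 to 10.1 normalised counts in WT and 5.14 to 17.3 in Pontin cTG hearts (1.199, SE 0.65, unadjusted p = 0.096 in edgeR). *Thbs1*, thrombospondin 1, had 2694 normalised counts in Pontin cTG replicate 1 and 197 to 626 in the other 5 hearts.

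To set resident against recruited genes within each heart, their summed normalised counts were divided. The ratio was 0.956, 0.847 and 0.993 in WT and 1.08, 0.529 and 0.832 in Pontin cTG hearts. The means were 0.932 ± 0.0761 and 0.813 ± 0.275 (SD, n = 3 each), and the groups overlapped. The lowest and the highest value were both in Pontin cTG hearts, replicates 2 and 1. The sums are led by *F13a1* and *Lyz2*. Without those genes the ratio was 6.14 ± 1.37 in WT and 5.58 ± 2.20 in Pontin cTG hearts, and replicate 2 was the lowest heart of each group.

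By the medians of the lists, C1q and recruited genes were high in both WT replicate 2 and Pontin cTG replicate 2. Resident genes were high in the former and low in the latter. Single genes did not all follow. Relative to the mean of the other Pontin cTG hearts, Pontin cTG replicate 2 was at 0.47 to 0.70 for *Cd163*, *Lyve1*, *Timd4* and *F13a1*. It was at 0.99 for *Mrc1*, 1.09 for *Cbr2* and 1.28 for *Folr2*. The same ratio was 0.43 for *Plac8* and 1.05 for *Cd14*, against 1.31 to 2.85 in the other recruited genes. In WT replicate 2 the median deviation from the gene's mean, on the log2 scale, was 0.59 for resident, 0.24 for C1q, 0.90 for pan-macrophage, 0.86 for recruited and lipid-associated and 0.70 for leukocyte-wide genes. In Pontin cTG replicate 2 it was −0.59 for resident, 0.37 for C1q, 0.068 for pan-macrophage, 0.47 for recruited and lipid-associated and 0.19 for leukocyte-wide genes. In Pontin cTG replicate 3 all of these medians lay between −0.61 and −0.31.

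**Figure D4:**
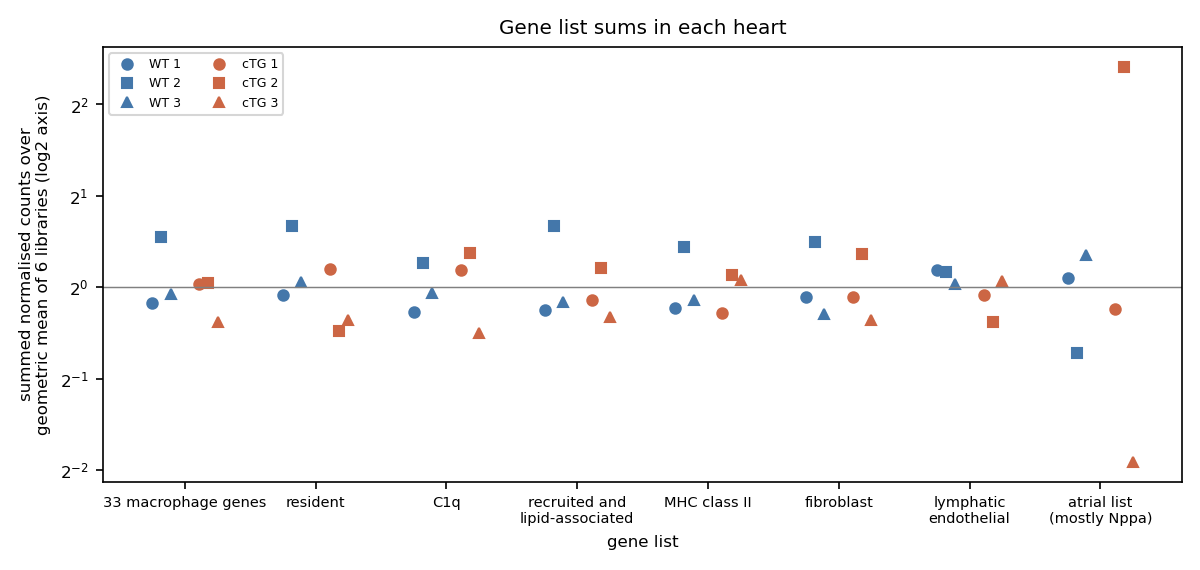
Summed normalised counts of gene lists (horizontal axis) in each heart, divided by the geometric mean of the 6 hearts, on a log2 axis. Blue is WT and orange Pontin cTG, and circles, squares and triangles are replicates 1, 2 and 3. WT replicate 2 is highest in all members, the resident genes, the recruited genes, MHC class II and the fibroblast markers, and Pontin cTG replicate 2 is lowest in the resident genes and far above the others in the atrial list, which is mostly *Nppa*.

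Of the 8 genes that macrophages share with other leukocytes, 7 had a log2 fold change below 0. *Cybb* (ENSMUSG00000015340, chromosome X from 9301491 to 9354010) encodes gp91phox, the catalytic subunit of the phagocyte NADPH oxidase. It had 211, 349 and 237 normalised counts in WT and 177, 185 and 178 in Pontin cTG hearts. All 3 Pontin cTG hearts lay below all 3 WT hearts, and they lay close together, at 180.04 ± 4.34 against 266 ± 73.1 in WT (SD, n = 3 each). The log2 fold change was −0.56 (SE 0.19, 95% interval −1.0006 to −0.12, unadjusted p = 0.018 and adjusted p = 0.999 in edgeR, unadjusted p = 0.016 in DESeq2). It was the smallest unadjusted p of the 32 genes tested, and the value was −0.32 without WT replicate 2, still with no overlap of the remaining hearts. The unadjusted p was under 0.05 in 13 of 15 alternatives, the exceptions being the fits that left out WT replicate 2 or Pontin cTG replicate 1.

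The integrin genes *Itgam* (CD11b) and *Itgb2* (CD18), which form the complement receptor Mac-1, had log2 fold changes of −0.68 (SE 0.39) and −0.45 (SE 0.39). *Itgam* had 47.4, 70.7 and 26.8 normalised counts in WT and 29.3, 38.5 and 22.5 in Pontin cTG hearts. *Itgb2* had 90.3, 252 and 126 in WT and 167, 95.9 and 82.3 in Pontin cTG hearts. The groups overlapped in both. Without WT replicate 2 the log2 fold changes were −0.30 and 0.083.

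*Tyrobp* and *Fcer1g* encode adaptors that carry the signals of TREM2 and of Fc receptors. *Tyrobp* had 77.1, 129 and 66.0 normalised counts in WT and 76.2, 152 and 61.5 in Pontin cTG hearts (log2 fold change 0.095, SE 0.38). *Fcer1g* had 91.7 to 192 and 79.7 to 146 (−0.27, SE 0.31). In both, replicate 2 was the highest heart of its group, as in *Trem2*.

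*Ptprc*, the pan-leukocyte antigen CD45, had 129, 324 and 141 normalised counts in WT and 151, 207 and 115 in Pontin cTG hearts (log2 fold change −0.32, SE 0.36). *Laptm5*, a lysosomal membrane protein of blood cells, had 392 to 508 normalised counts in WT and 276 to 409 in Pontin cTG hearts (−0.29, SE 0.18), and *Aif1*, the calcium-binding protein IBA1, had 30.8 to 53.8 and 20.8 to 40.2 (−0.40, SE 0.37). All 3 were highest in WT replicate 2 and lowest in Pontin cTG replicate 3. With single hearts left out, *Aif1* ran from −0.71 (Pontin cTG replicate 2) to −0.092 (WT replicate 2) and *Laptm5* from −0.39 (Pontin cTG replicate 1) to −0.14 (Pontin cTG replicate 3), while *Ptprc* was 0.23 without WT replicate 2.

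Genes whose proteins work with those of the members were listed as well, such as the other subunits of the NADPH oxidase, Fc receptors and components of complement. All 25 were tested, 5 with a log2 fold change above 0 and 20 below, none at an unadjusted p under 0.05 in edgeR, and 16 of the 25 were highest in WT replicate 2. *Fcgr2b*, the inhibitory Fc receptor, had 148, 328 and 198 normalised counts in WT and 162, 162 and 128 in Pontin cTG hearts (log2 fold change −0.57, SE 0.27, unadjusted p = 0.065 in edgeR). *Cyba*, which encodes p22phox, the membrane partner of gp91phox, had 253, 307 and 323 in WT and 311, 446 and 336 in Pontin cTG hearts (0.31, SE 0.17), a value of the opposite sign to that of *Cybb*. *Tlr4*, the receptor that CD14 serves, had 334, 326 and 407 in WT and 359, 184 and 262 in Pontin cTG hearts (−0.41, SE 0.23).

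The 7 genes of MHC class II, which macrophages and dendritic cells use to present antigen, had 1 log2 fold change above 0 and 6 below, none at an unadjusted p under 0.05 in edgeR. All 7 were highest in WT replicate 2. *H2-Aa* had 568, 1090.3 and 638 normalised counts in WT and 527, 777 and 717 in Pontin cTG hearts (log2 fold change −0.18, SE 0.25). *H2-Ab1* and the class II transactivator *Ciita* had −0.13 (SE 0.20) and −0.23 (SE 0.43).

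Markers of other cells moved with the same hearts in part. The 7 fibroblast markers, collagens among them, summed to 26075 normalised counts in WT replicate 2 and 23756 in Pontin cTG replicate 2, against 14439.6 to 17180.2 in the other 4, and 4 and 3 of the 7 were highest in those hearts. The sum of the 7 endothelial markers was highest in Pontin cTG replicate 2, at 24809.5 against 17157 to 20287. Of the 7, 5 were highest in that heart and 2 in WT replicate 2. The 5 atrial markers summed to 7759 in Pontin cTG replicate 2 and 387 to 1866 in the other 5, and *Nppa*, which stressed ventricles also express, made up 98.9% of their counts. Their part in the values of the macrophage genes was not tested.

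Markers of other leukocytes were scarce, and those of red cells were not: the 5 erythroid markers summed to between 13186 and 22338 normalised counts in WT and between 11695 and 21216 in Pontin cTG hearts. The 7 neutrophil markers summed to between 14.3 and 117 normalised counts in WT and between 35.1 and 168 in Pontin cTG hearts, with *Ly6g* at 0 and 3 tested, all 3 with a log2 fold change above 0. The 7 T and NK cell markers summed to between 17.9 and 29.1 over the 6 hearts and the 5 B cell markers to between 10.7 and 50.2, with 1 tested in each list. The 6 dendritic cell markers summed to 312 to 355 normalised counts in WT and 306 to 470.1 in Pontin cTG hearts, of which *Zbtb46*, also a gene of endothelium, took the most. The 7 cardiomyocyte markers, at 670621 ± 62604 in WT and 648432 ± 36394 (SD, n = 3 each) in Pontin cTG hearts, were abundant in every library, as the tissue label says.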

How the data were processed

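RNA of heart tissue was sequenced in 6 libraries, 1 per mouse, 3 Pontin cTG and 3 WT, and samples were grouped by the genotype in the labels. The authors deposited 1 table of counts per Ensembl gene, whole numbers without normalisation. The sources disagree on how the counts were made: the paper's methods name Trimmomatic, STAR, mm10 and a Gencode annotation, whereas the submitters' processing notes name fastp, HISAT2, featureCounts, DESeq2 and GRCm39 (mm39). The coordinates in the table are those of GRCm38 for 0 of the 33 members and 1524 of 52125 genes shared with an annotation of that build, so they are given as the table has them. Columns were matched to samples by the names in the labels (0 were left unmatched, and 0 rows lacked a gene identifier). The paper's methods name the TruSeq RNA kit v2, which does not mark strand.

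The test was the robust quasi-likelihood F-test of edgeR 4.0.16 (R 4.3.3) on the counts as deposited, after TMM scaling. Genotype was the single term, low counts were removed by filterByExpr at a minimum count of 10, and p-values were adjusted after Benjamini-Hochberg over 13888 genes. The SE of a log2 fold change is its size over the square root of F. Normalised counts are counts over TMM-scaled library size times the geometric mean of these sizes. Total counts of 12436822 to 16888124 per library set the precision, and 3 counts are the limit that a count of 0 allows, which covers counting error only. All pairs of libraries differed by more than sampling noise (chi-square per gene of at least 5.54).

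The members and lists were chosen with earlier results of these data known. Named were *Ruvbl1*, all 33 members and, of each further list of macrophage-related genes, the genes at an unadjusted p under 0.05 or otherwise the 3 with the smallest p, besides paralogs and overlapping genes that hold reads. Markers of other cells are given as sums. The ratios between genes and the single genes *Csf2*, *Nppa* and *Zbtb46* were picked with their values in view. As alternatives, each library was left out in turn, the replicate number was added as a block, the filter was dropped or raised to 10 counts in every library, mitochondrial genes were removed, and scaling was by library size or by the size factors of DESeq2. DESeq2 1.42.0 itself and limma-voom (limma 3.58.1) with sample quality weights were run too; leaving out replicate 2 of both groups was added after the data had been seen. Tests were first checked on simulated counts. Promoters came from RefSeq on GRCm38.p6, matched by symbol.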

Additional observations from a re-analysis of the deposited data

How the results depend on the processing

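None of the 33 genes passed an adjusted p of 0.05 under any of the 15 alternatives. The number at an unadjusted p under 0.05, 3 in edgeR, was 5 in DESeq2, 5 without a filter on low counts and 6 with the replicate block, where 0.847%, 1.86% and 3.59% of all genes tested were called, against 2.05% in edgeR. The shares of DESeq2 and of the fit without a filter are over 25633 and 25636 genes, low counts included, and so rest on a wider base. With 1 heart left out the number ran from 0 (WT replicate 2, 1.31% of all genes) and 1 (Pontin cTG replicate 3, 2.87%) up to 5 (WT replicate 1 or 3, 0.847% and 1.68%). The number with a log2 fold change above 0, 7, was 12 in limma-voom and 12 without replicate 2 of both groups, and was 20 without WT replicate 2, 3 without WT replicate 3 and 2 without either WT replicate 1 or Pontin cTG replicate 2. The resident median of −0.36 was 0.090 in limma-voom, and with 1 heart left out it lay between −0.67 (Pontin cTG replicate 1) and −0.13 (WT replicate 2). The recruited median lay between −0.59 (Pontin cTG replicate 2 left out) and 0.22 (WT replicate 2 left out). The log2 ratio of resident to recruited sums differed by −0.25 between genotypes (Pontin cTG minus WT). This difference ran from −0.49 to 0.027 with 1 heart left out. Deviations of same-numbered hearts from their group means correlated at 0.077, 0.43 and 0.19. The paper calls the WT mice littermates, but no source says which hearts shared a litter, and none names a batch. The hearts were therefore treated as unpaired.

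Of 480 values of single genes under alternatives, 428 kept their sign and 52 turned, 13 of them without WT replicate 2. The 12 genes that never turned were *Csf1*, *Csf1r*, *Timd4*, *Mrc1*, *F13a1*, *Adgre1*, *Cd68*, *Fcgr1*, *Itgam*, *Laptm5*, *Aif1* and *Cybb*. With library size alone *Mertk* was at 0.027, and *Cd14* was at −0.0017 without a filter and −0.020 with the replicate block. In limma-voom the log2 fold changes were 0.39 for *Lyve1*, 0.14 for *Folr2*, 0.11 for *Cd163*, 0.090 for *Cbr2*, 0.12 for *Lgals3*, 0.17 for *Itgb2* and −0.074 for *Tyrobp*. Without replicate 2 of both groups they were 0.27 for *Lyve1*, 0.16 for *Cd163*, 0.11 for *Cbr2*, 0.17 for *Gpnmb*, 0.23 for *Lgals3*, 0.20 for *Itgb2* and −0.057 for *Tyrobp*. With single hearts left out, the range was −0.11 to 0.29 for *C1qa*, −0.15 to 0.25 for *C1qb*, −0.079 to 0.33 for *C1qc*, −0.27 to 0.15 for *Cbr2*, −0.22 to 0.23 for *Cd14*, −0.77 to 0.11 for *Cd52*, −0.62 to 0.088 for *Ctss*, −0.51 to 0.078 for *Fcer1g*, −0.49 to 0.094 for *Folr2* and −0.47 to 0.42 for *Gpnmb*. It was −0.80 to 0.083 for *Itgb2*, −1.02 to 0.84 for *Lgals3*, −0.62 to 0.099 for *Lyve1*, −0.37 to 0.11 for *Lyz2*, −0.19 to 0.11 for *Mertk*, −0.39 to 0.89 for *Ms4a7*, −0.57 to 0.23 for *Ptprc*, −1.15 to 0.26 for *Trem2* and −0.40 to 0.43 for *Tyrobp*. The cause was not tested. Without replicate 2 of both groups, *Csf1*, *Csf1r* and *Cybb* had an unadjusted p under 0.05 in edgeR, as did 4.15% of all genes tested.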
